A study of Danio rerio with 11 samples.

Results

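The 3 genes described here are il13 (ENSDARG00000077809), ifi27.1 (ENSDARG00000017489) and hpxb (ENSDARG00000051912), taken by their identifiers from a table of 39714 gene IDs, of which 29512 had a value above 0 in at least 1 library. They were selected on the FPKM values of these same libraries, as genes high in the injury segment and low in the distal segments, so their difference between segments is described below without a test. The libraries hold bulk RNA of sorted ISNs (intraspinal serotonergic neurons, whose somata lie in the cord and which make serotonin there) from Tg(tph2:GFP) zebrafish, in which the promoter of tph2, the gene of the rate-limiting enzyme of neuronal serotonin synthesis, drives green fluorescent protein. GFP-positive cells were sorted from the injury segment (6 libraries) and from the distal segments (5 libraries) of the cord, 6 to 8 weeks after a spinal cord injury. All fish thus carried the transgene and the lesion, and no library came from an uninjured fish. The study's methods state that injury and distal segments were taken from the same animals, which were juvenile or adult fish of both sexes, but not how many fish went into a library or which libraries shared fish. Levels are given in FPKM (fragments scaled to 1 kilobase of gene length and to 1000000 fragments counted on genes), which allows levels of different genes to be compared per length.

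The gene il13 encodes interleukin 13, a secreted type 2 cytokine that in mammals is made mainly by type 2 helper T cells and innate lymphoid cells, and that signals through the il13ra1 and il4r receptor chains, JAK kinases and STAT6. The gene ifi27.1 belongs to the ifi27 (ISG12) family, small hydrophobic membrane proteins whose mammalian members are induced by type I interferon and localize largely to mitochondria. The gene hpxb encodes a hemopexin, a secreted protein that in mammals is made chiefly by the liver and binds free haem in plasma.

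The libraries held between 14215980 and 19709661 fragments on genes. They differed far more in how many genes those fragments covered. Injury replicates 2 and 3 had 5443 and 4530 gene IDs at 1 FPKM or more, and distal replicate 2 had 8448, the fewest of the distal libraries, whereas the other 8 libraries had 8808 to 16019. The sorted cells carried their defining markers in every library, with tph2 at 1589.5 to 5396 FPKM at the injury against 1462 to 6042 FPKM in distal libraries. Because the RNA is bulk, fewer cells of a type and less RNA per cell cannot be told apart in any value below.

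The cytokine gene il13 was abundant in every injury library. Its level was 435, 345, 239, 300.3, 184 and 161 FPKM in injury replicates 1 to 6. In distal replicates 1 to 5 it was 22.8, 110.3, 51.5, 1.29 and 58.9 FPKM. The groups did not overlap, and the lowest injury library was 1.46 times the highest distal library, distal replicate 2. The injury mean was 277 ± 104 FPKM (SD, n = 6) against 48.9 ± 41.3 FPKM (SD, n = 5). Spread was narrow at the injury, where the highest library was 2.70 times the lowest, and wide in the distal segments, where the ratio was 85.3. The low distal value, in distal replicate 4, rested on 17 fragments, for which an exact 95% Poisson interval gives 0.753 to 2.07 FPKM, while every other library had between 396 and 7241 fragments on il13. These intervals cover counting error only, since amplified copies of a cDNA are not independent molecules.

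The level of ifi27.1 was 506, 774, 110.4, 413, 72.2 and 110.5 FPKM in injury replicates 1 to 6. In distal replicates 1 to 5 it was 56.6, 89.8, 30.9, 33.2 and 14.5 FPKM. Injury replicates 1, 2 and 4 stood well above the remaining injury libraries, and the groups overlapped, because injury replicate 5 was below distal replicate 2. The other 5 injury libraries were above all distal libraries. Means were 331 ± 282 FPKM (SD, n = 6) at the injury and 45.0 ± 29.2 FPKM (SD, n = 5) in the distal segments, and the highest injury library was 10.7 times the lowest.

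The hemopexin gene hpxb had the highest levels of the 3 in most libraries. It was at 1080.2, 383, 3785, 663, 726 and 637 FPKM in injury replicates 1 to 6. In distal replicates 1 to 5 it was at 49.5, 937, 55.5, 58.7 and 274 FPKM. Distal replicates 1, 3 and 4 lay close together near the bottom of the range, distal replicate 5 was intermediate, and distal replicate 2 exceeded all injury libraries but replicates 1 and 3, so that the groups overlapped. In injury replicate 3 hpxb took 86401 fragments, 0.529% of all fragments on genes in that library. The mean was 1212 ± 1280.0 FPKM (SD, n = 6) at the injury and 275 ± 382 FPKM (SD, n = 5) in the distal segments, while the medians, which injury replicate 3 and distal replicate 2 move less, were 695 and 58.7 FPKM.

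**Figure D1:**
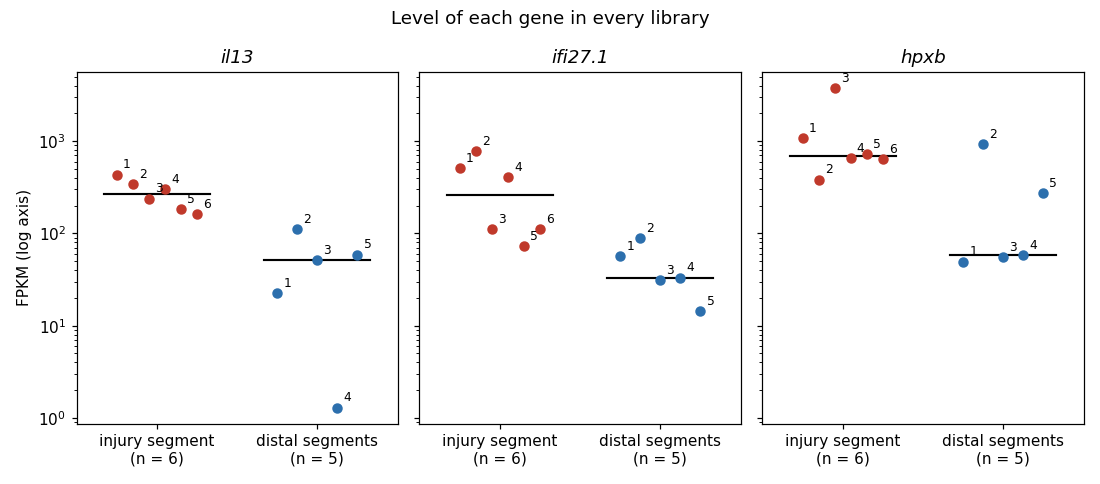
FPKM on a log axis of il13, ifi27.1 and hpxb in each of the 6 injury and 5 distal libraries, with points numbered by replicate and a line at the group median. The il13 groups are separate, ifi27.1 overlaps through injury replicate 5 (72.2 FPKM) and distal replicate 2 (89.8 FPKM), and hpxb overlaps through distal replicate 2 (937 FPKM).

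Set against tph2 of the same library, hpxb was at 18.6% to 70.2% of the tph2 level in the injury libraries and at 1.39% to 15.5% in the distal libraries. The corresponding range for il13 was 4.43% to 16.8% at the injury and 0.0389% to 3.52% in the distal segments. For ifi27.1 the share was 2.05% to 37.6% at the injury and 0.293% to 2.11% in the distal segments.

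Ranked by FPKM among all gene IDs of a library, with 1 the highest, il13 lay at ranks 259 to 528 in the injury libraries. In the distal libraries it ranked 3286, 767, 1341, 9604 and 1483. For ifi27.1 the injury ranks were 220, 148, 916, 180, 1090 and 735, and the distal ranks ran from 953 to 4768. The highest rank of the 3 genes was that of hpxb in injury replicate 3, the 12th most abundant of all gene IDs, and hpxb ranked 89 to 315 in the other injury libraries. In distal replicate 2 hpxb also ranked high, at 67, against 320 in distal replicate 5 and 1253 to 1763 in the other distal libraries. All 3 genes therefore ranked among the most abundant 5.05% of the detected IDs in injury replicates 1, 2, 4, 5 and 6. In injury replicates 2 and 3, where fewer IDs were detected, the lowest placed of the 3 was il13 at 5.02% in replicate 2 and ifi27.1 at 17.2% in replicate 3.

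**Figure D2:**
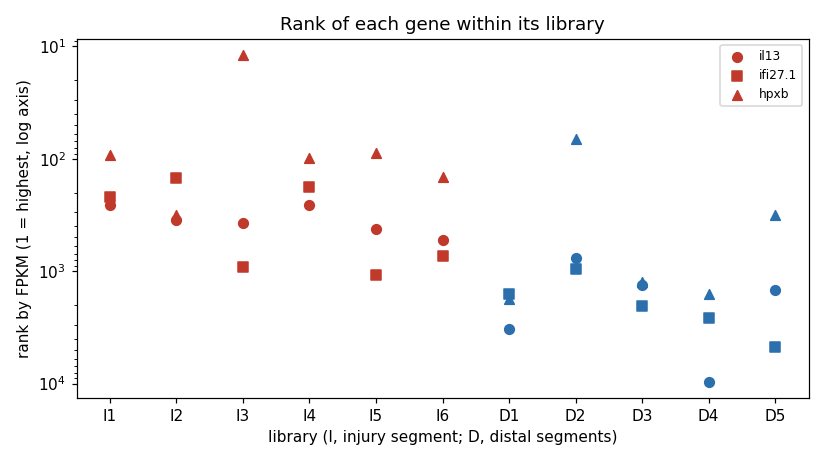
Rank by FPKM (1 is the highest, log axis, inverted) of il13, ifi27.1 and hpxb in each library, red for the injury segment and blue for the distal segments. Injury ranks lie between 12 and 1090, and distal ranks spread from 67 for hpxb in distal replicate 2 to 9604 for il13 in distal replicate 4.

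On the log2(FPKM + 1) scale, the injury minus distal difference was 3.20 ± 0.79 (SE) for il13, 2.57 ± 0.72 (SE) for ifi27.1 and 2.72 ± 0.67 (SE) for hpxb (n = 6 and 5). Each SE comes from the limma fit given below, which draws the variance of a gene toward that of other genes. It is no test of genes selected on this difference. In the same order, group SDs on this scale were 0.546, 1.41 and 1.13 at the injury and 2.18, 0.961 and 1.86 in the distal segments. Over all 24178 genes whose mean FPKM was 0.1 or more, the median difference was -0.04. A limma fit over those genes called 0 at a Benjamini-Hochberg adjusted p under 0.05 (0%), with the lowest adjusted p at 0.525. At an unadjusted p under 0.05, 159 genes were higher (0.658% of those tested) and 490 lower (2.03%) at the injury, 2.68% in either direction. This balance turned without injury replicate 3 (386 higher and 353 lower), without injury replicate 2 (343 and 336) and without both and distal replicate 2 (616 and 326). Voom on recovered fragments called 3 genes and a fit without a trend called 2. The 3 genes were among the 5 higher genes with the smallest unadjusted p. That place is no test of them, since they were selected on the same values. The other genes among the first 5 were ENSDARG00000112970, with a difference of 4.31, and Novel00029, with 3.70, both far less abundant at up to 66.2 and 37.5 FPKM at the injury. Just outside stood rasd3, a Ras family gene, in sixth place with a difference of 3.95, at 0 to 180 FPKM in injury libraries against 0 to 9.55 FPKM in distal libraries. Genes whose injury libraries all exceeded all distal libraries numbered 16 (0.0662% of those tested), il13 among them, and 45 (0.186%) had all injury libraries below all distal libraries.

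The difference of il13 depended on distal replicate 4, without which it was 2.29, and that of hpxb on distal replicate 2, without which it was 3.42. Leaving out injury replicate 3, the library with the highest hpxb level, gave 2.30 for hpxb. Without the 3 libraries that covered the fewest genes in their group (injury replicates 2 and 3 and distal replicate 2), an alternative added after the data were seen, the differences were 3.62 for il13, 2.69 for ifi27.1 and 3.20 for hpxb, where the median over all genes was 0.19. Distal replicate 2 (8448 IDs) covered nearly as many genes as injury replicate 4 (8808), which was kept. It also had the highest distal level of all 3 genes, and without it alone the differences were 3.69, 2.87 and 3.42. The direction was the same in each of these.

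Within the injury segment the closest relation was that of il13 and ifi27.1 across the 6 libraries, with Pearson's r = 0.88 (exact permutation p = 0.0389 over all pairings, two-sided) and Spearman's rho = 0.77 (exact permutation p = 0.103). After Benjamini-Hochberg adjustment over the 6 relations computed, these became 0.233 and 0.617 (exact permutation tests), so the relation did not pass. Without injury replicates 1 and 6, the libraries farthest from the il13 median, r was 0.97, with no test run on the few libraries left. Leaving out 1 library at a time gave r of 0.85 to 0.91, and none of these passed after adjustment. Injury replicates 1, 2 and 4 had the highest levels of both genes and injury replicates 3, 5 and 6 the lowest. No correlation was computed over the 5 distal libraries, where distal replicate 2 was highest for both, but distal replicate 4 had the lowest il13 with an ifi27.1 level near that of distal replicate 3, and distal replicate 5 had the lowest ifi27.1 with the second highest il13.

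The other pairs showed no relation that passed. For il13 and hpxb at the injury r was -0.05 and rho 0.09 (exact permutation p = 0.933 and 0.919, adjusted 0.933 and 0.919), and without the same pair of libraries r was -0.41. For ifi27.1 and hpxb r was -0.42 and rho -0.49 (exact permutation p = 0.465 and 0.356, adjusted 0.698 and 0.746), and r was -0.40 without injury replicates 2 and 5. Injury replicate 3, by far the highest for hpxb, had less il13 than injury replicates 1, 2 and 4 and about the same ifi27.1 as injury replicate 6, and injury replicate 2, the highest for ifi27.1, was the lowest for hpxb.

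The number of gene IDs detected at 1 FPKM or more had no relation to the 3 genes within the injury libraries that passed the test. Pearson's r was -0.35 for il13, -0.38 for ifi27.1 and -0.29 for hpxb (exact permutation p = 0.453, 0.400 and 0.649, adjusted 0.698, 0.698 and 0.778). Spearman's rho was -0.43, -0.37 and -0.14 in the same order (exact permutation p = 0.419, 0.497 and 0.803, adjusted 0.746, 0.746 and 0.919). Without injury replicates 2 and 3, which had the fewest IDs, r was -0.45, -0.67 and 0.20. Leaving out 1 library at a time gave r of -0.81 to -0.11 for il13 and -0.80 to -0.11 for ifi27.1, and for hpxb r of -0.75 without injury replicate 2 and 0.72 without injury replicate 3. A p that misses the threshold over 6 libraries does not show that no relation exists.

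**Figure D3:**
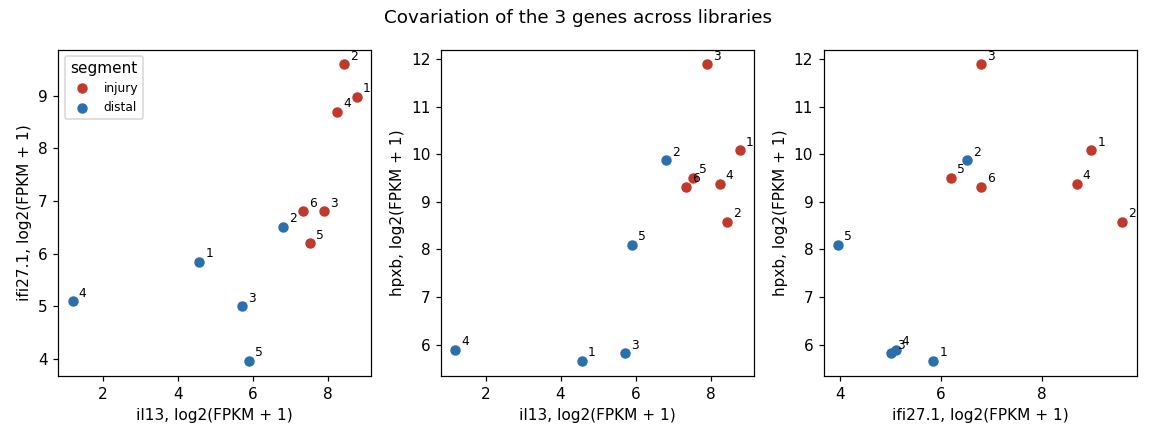
Pairwise plots of il13, ifi27.1 and hpxb in log2(FPKM + 1), 1 point per library numbered by replicate, red for injury and blue for distal. Among the red points r was 0.88 for il13 and ifi27.1, -0.05 for il13 and hpxb and -0.42 for ifi27.1 and hpxb (n = 6), and no relation passed after adjustment.

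The genes whose pattern over all 11 libraries was most like each of the 3 were found among 15703 IDs with mean FPKM of 1 or more, as a description in which the libraries and the difference between segments are shared. For il13 these were Novel01579 (r = 0.87), si:dkey-182g1.2 (r = 0.85), API5, an apoptosis inhibitor gene (r = 0.85), PIR, the gene of the nuclear protein pirin (r = 0.85), and si:dkey-208m12.2 (r = 0.84). Of the other genes described here, hpxb stood 26th (r = 0.76) and ifi27.1 60th (r = 0.69) by likeness to il13, while ifi27.1 stood 838th by likeness to hpxb and hpxb 404th by likeness to ifi27.1 (r = 0.49). For ifi27.1 the closest were MT-CO1, a mitochondrially encoded subunit of cytochrome c oxidase (r = 0.83), ENTPD2, an ectonucleotidase gene (r = 0.82), Novel07009 (r = 0.81), Novel06163 (r = 0.80) and Novel04294 (r = 0.79). Of these, MT-CO1 was at 7551 to 22445 FPKM in injury libraries against 4280.1 to 10339 FPKM in distal libraries, with overlapping ranges. Far lower, ENTPD2, Novel07009 and Novel06163 were at 0 in part of the injury libraries and at most 10.9, 7.51 and 15.5 FPKM there. In distal libraries they were at most 0, 0.671 and 0.124 FPKM, so they met the filter on the mean through the injury libraries. For hpxb they were MANEAL (r = 0.91), ENSDARG00000062790 (r = 0.91), SPOCK3, which encodes an extracellular proteoglycan (r = 0.91), RAB6B, a neuronal Rab GTPase gene (r = 0.90), and insig1, a regulator of sterol synthesis (r = 0.90). The 6 injury libraries are part of the 11 that chose these genes, so r within them is no separate check. There the closest genes, in the order given, had r of 0.93, 0.97, 0.79, 0.62 and 0.67 with hpxb. With il13 r was -0.06, 0.41, 0.17, 0.32 and 0.42, and with ifi27.1 it was 0.65, 0.77, 0.82, 0.86 and 0.32.

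Among the cytokine and chemokine IDs compared here, il13 had the highest level in every injury library. Cytokine genes outside this set were not compared. Of 46 other cytokine and chemokine IDs (il4 and a list of 45), 0 reached il13 in any of the 6 injury libraries, where the highest of them was between 0.0501 FPKM (il17a/f3 in injury replicate 3) and 120 FPKM (the chemokine gene ccl19a.1 in injury replicate 6). In the distal libraries il13 was also above all 46 in replicates 2, 3 and 5, while the chemokine gene ccl27b exceeded it in distal replicate 1 (78.1 FPKM) and in distal replicate 4 (35.8 FPKM), where 5 of the 46 were higher. In the list of 45, 28 IDs could be tested and 0 were higher or lower at an unadjusted p under 0.05, with a median difference of 0.25 beside -0.04 over all genes. Its most abundant genes by mean were ccl19a.1, ccl27b and il17a/f3, each at 0 or under 1 FPKM in several libraries.

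The related type 2 cytokine gene il4 was above 0 only in injury replicates 1 (8.58 FPKM) and 6 (1.31 FPKM). The genes of the receptors were sparse. The il13ra1 gene, of the signalling receptor chain, was above 0 in 2 injury and 3 distal libraries, at most 9.01 FPKM. The il13ra2 gene, of the second il13-binding chain, was above 0 in 3 injury and 1 distal libraries, at most 3.69 FPKM, and il4r.1 in 3 injury and 1 distal libraries, at most 4.45 FPKM. Of the common gamma chain genes, which are not among the il13 signalling chains named above, il2rga was at 0 in all 11 libraries and il2rgb above 0 in 1. Further down the chain, the kinase genes JAK1 (0 to 117 FPKM) and TYK2 (0 to 14.7 FPKM) and the transcription factor gene stat6 (0 to 25.9 FPKM) were present in most libraries of both groups. The following genes of the list were abundant throughout: GATA3, a transcription factor of type 2 lymphocytes that serotonergic neurons also express, at 328 to 553 FPKM in injury libraries against 242 to 731 FPKM in distal libraries, the arginase gene ARG2 at 199.999 to 631 and 197 to 996 FPKM, and SOCS1, a feedback inhibitor of cytokine signalling, at 57.0 to 313 and 32.9 to 190 FPKM. Of the 16 IDs of this list besides il13, 12 were tested and 0 were higher or lower at an unadjusted p under 0.05. Their median difference was 0.32.

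Of the ifi27 family 8 IDs were in the table, and copies of such a family can share reads. How reads that fit several copies were treated is not given in the sources used here, so the split of fragments among them is uncertain. Together the 8 IDs summed to 202 to 1030.1 FPKM in the injury libraries and 56.8 to 271 FPKM in the distal libraries, and ifi27.1 made up 31.7% to 85.5% of that sum at the injury and 16.9% to 58.4% in the distal segments. In injury replicate 2, with the highest ifi27.1, the only other family ID above 0 was ifi27.8, at 131 FPKM. Next in abundance, ifi27.8 was above 0 in 5 injury and 4 distal libraries, at up to 306 and 170 FPKM, and ifi27.6 likewise in 5 and 4, at up to 170 and 111 FPKM. In contrast, ifi27.2, ifi27.4 and ifi27.5 were above 0 only in injury libraries, 3, 3 and 2 of them, at up to 39.2, 40.7 and 4.28 FPKM. The ifi27.7 gene was above 0 in 3 injury and 2 distal libraries, and ifi27.3 only in distal replicate 2, at 0.545 FPKM.

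Across the 9 paralogs of the 3 genes (7 of the ifi27 family, il4 and hpxa), exact two-sided permutation tests over every choice of 6 of the 11 libraries gave adjusted p between 0.676 and 1. The smallest p this design allows is 0.00216, but not for genes at 0 in most libraries. Above 0 in at most 3 libraries were ifi27.2, ifi27.3, ifi27.4, ifi27.5, il4 and hpxa. For these no level could bring p under 0.05, so their tests decide nothing. The log2 differences of ifi27.2 and ifi27.4, each higher in 3 of 6 injury libraries than in any distal library, were 2.38 and 1.504 (exact permutation p = 0.182 for each, adjusted 0.676). For ifi27.6 the difference was 1.43 and for ifi27.8 it was 0.96 (exact permutation p = 0.383 and 0.526, adjusted 0.676 for each). In the limma fit ifi27.2 had an unadjusted p of 0.0311 (adjusted 0.838), which did not stay under 0.05 without any 1 of injury replicates 1, 5 and 6 or distal replicates 3 and 5.

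**Figure D4:**
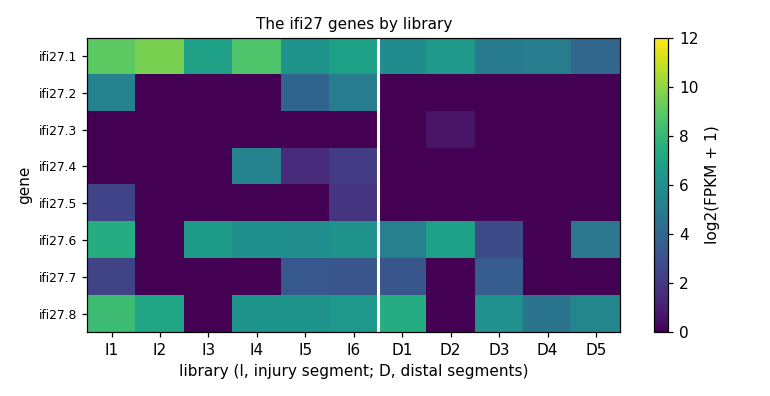
Heat map of log2(FPKM + 1) for the 8 ifi27 genes (rows) in the 6 injury (I) and 5 distal (D) libraries (columns). The row of ifi27.1 is above 0 in all 11 libraries, ifi27.6 and ifi27.8 are above 0 in 9 each, and ifi27.2, ifi27.4 and ifi27.5 have values only left of the white line, in injury libraries.

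Besides ifi27.1, the list of interferon-induced genes held 47 IDs. Of these 32 were tested, and at an unadjusted p under 0.05 (2.68% of all genes tested) 1 was higher (ifi27.2) and 1 lower (PSME1, a proteasome activator subunit, with a difference of -2.64, limma unadjusted p = 0.0180, adjusted 0.838) at the injury, and the median difference was 0.18. In injury replicate 2 ifi27.1 exceeded all 47, and in the other injury libraries 1 to 3 IDs were above it. The most abundant were the antigen presentation genes b2m, at 725 to 2612 FPKM in injury libraries against 719.99 to 1729 FPKM in distal libraries, mhc1zba, at 112 to 432 and 42.2 to 363 FPKM, and b2ml, at 111 to 221 and 155 to 295 FPKM. The antiviral genes isg15 and RSAD2 were above 0 in 2 and 1 injury libraries, at most 23.2 and 0.130 FPKM, and in 0 distal libraries. Of the 47 IDs, 8 were at 0 in all 11 libraries, mxa among them. Others of the list were present in both groups, such as mxg in 3 injury and 4 distal libraries, at most 13.5 FPKM. Likewise trim25 was above 0 in 5 and 4, at most 76.0 FPKM, and isg20 in 3 and 5, at most 26.3 FPKM. Of the interferon genes, ifnphi1 was above 0 only in distal replicate 3 (4.60 FPKM), ifng1 only in injury replicate 6 (3.0 FPKM), and ifnphi2, ifnphi3 and ifnphi4 in 0 libraries. In the list of 19 interferon, receptor and signalling IDs, 14 were tested and 0 were higher or lower at an unadjusted p under 0.05, with a median difference of 0.37. Its most abundant IDs were those of the cytokine signalling inhibitor SOCS3, the higher of which was at 59.6 to 403 and 73.4 to 375 FPKM, and of the interferon signalling factor irf9, at 0 to 166 and 0 to 74.5 FPKM.

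In the list of haem and iron genes the most abundant besides hpxb was fth1a, the ferritin heavy chain gene. It was at 468 to 1686 FPKM in injury libraries against 775 to 2522 FPKM in distal libraries, and of the 38 other IDs no other exceeded hpxb in any injury library, while SLC48A1 (74.0 FPKM) also did in distal replicate 1. Next in abundance was ALAS1, of the first enzyme of haem synthesis, at 19.2 to 215 and 4.92 to 142 FPKM, followed by the haem transporter gene SLC48A1, the higher of whose IDs was at 0 to 116 and 4.49 to 74.0 FPKM. The paralog hpxa was above 0 only in injury replicate 5 (0.813 FPKM) and distal replicate 5 (0.0810 FPKM). The gene of haptoglobin, hp, which binds free haemoglobin in plasma, was at most 0.494 FPKM in any library. The inducible haem oxygenase gene HMOX1 was above 0 in 2 injury and 2 distal libraries, at most 6.89 FPKM. Of the haem exporter and iron exporter genes, FLVCR1 was at 8.84 to 19.7 FPKM in injury libraries against 0 to 14.7 FPKM in distal libraries, and SLC40A1 (ferroportin) at 3.89 to 14.5 and 0.472 to 14.9 FPKM. Of the list, 32 IDs were tested, and at an unadjusted p under 0.05 0 were higher and 1 was lower at the injury, with a median difference of -0.36. That 1 was FECH, whose enzyme inserts iron to complete haem. It was at 0 in injury replicates 1 to 4, at 10.7 and 3.88 FPKM in replicates 5 and 6 and at 12.6 to 25.03 FPKM in the 5 distal libraries, a difference of -3.12 ± 0.93 (SE; limma unadjusted p = 0.00235, adjusted 0.838).

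**Figure D5:**
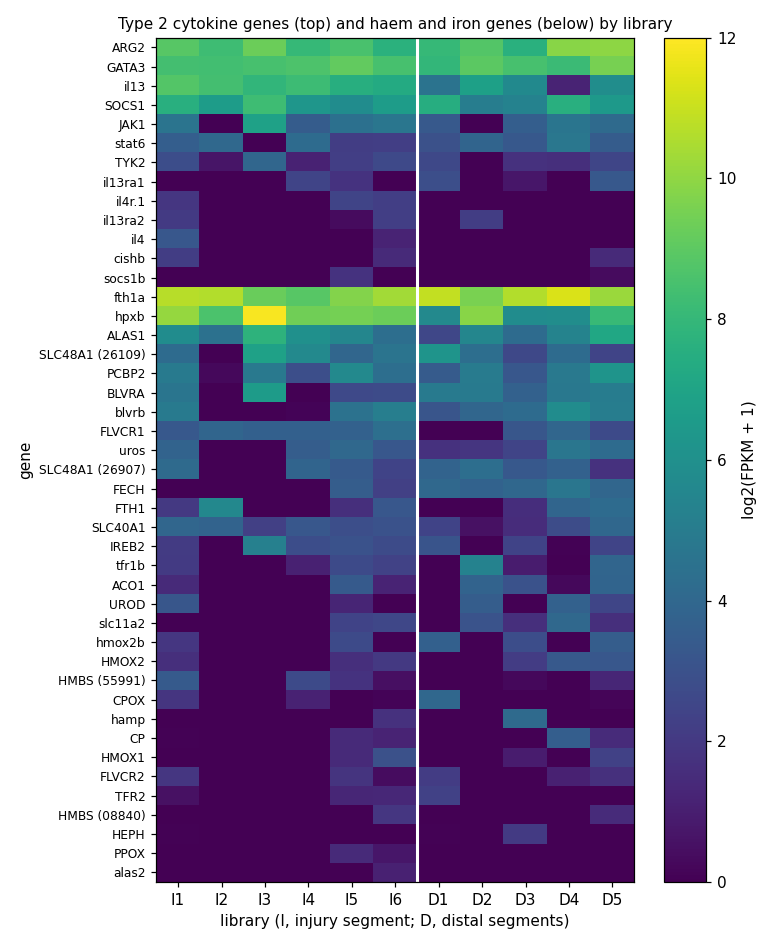
Heat map of log2(FPKM + 1) for the 13 IDs of the type 2 cytokine list (top block, ARG2 to socs1b, including il13) and the 31 IDs of the haem and iron list (from fth1a down, including hpxb) that reached 1 FPKM in at least 1 library, ordered by mean within each block, with the last digits of the ID where a symbol has several. The rows of il13 and hpxb stand out among mostly dark rows, as do those of ARG2, GATA3 and SOCS1 in the top block. The receptor genes il13ra1, il13ra2 and il4r.1 are dark in most libraries, and fth1a is bright in all 11.

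Plasma protein genes that the liver makes together with hemopexin were at or near 0. Their 36 IDs summed to 0 to 17.8 FPKM in injury libraries against 0 to 8.34 FPKM in distal libraries, with ambp, f2, FGB and FGG at 0 in every library, and the most abundant, SERPINC1, ahsg1 and PLG, were at most 8.18, 4.39 and 4.33 FPKM. Of the 11 tested 0 were higher or lower at an unadjusted p under 0.05, and the median difference was 0.30.

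Markers of leukocytes were low or at 0 in most of the libraries in which il13, ifi27.1 and hpxb were high. The 19 microglia and macrophage IDs summed to 25.9, 0, 0.0575, 0.206, 12.5 and 527 FPKM in injury replicates 1 to 6 and to 6.69, 0.0208, 574, 310.1 and 3.07 FPKM in distal replicates 1 to 5. Of the injury libraries, replicate 6, with the highest sum, had the lowest il13, and replicate 1, with the next highest sum, had the highest il13. Of the distal libraries, replicate 3, with the highest sum, had the median il13 level (51.5 FPKM), and replicate 4, with the next highest sum, had the lowest. The leukocyte gene ptprc was at 0 in 5 of the 6 injury libraries and at 4.98 FPKM in injury replicate 6. It was above 0 in 3 of the 5 distal libraries, at most 1.13 FPKM. The highest markers of this list were apoc1, cd74a and ccl34b.1, at most 252, 236 and 156 FPKM. Lymphoid markers (25 IDs) summed to 0 to 24.2 FPKM in injury libraries against 0 to 12.9 FPKM in distal libraries. They were all at 0 in injury replicates 2 and 3, where il13 was at 345 and 239 FPKM. These libraries covered the fewest genes (5443 and 4530 IDs at 1 FPKM or more), so a 0 of any marker there says little. The gene cd4-1, a marker of helper T cells, was at 0 in all 11 libraries. Other lymphoid markers were above 0 only in injury replicates 5 or 6, namely lck, ZAP70, il7r and CCR7, at most 1.68, 4.53, 2.88 and 3.24 FPKM. In contrast, cd8a and cd247 were above 0 only in distal replicate 5, at 1.90 and 2.78 FPKM. The most abundant by mean, cd79a, RAG2 and foxp3a, were at most 5.85, 3.71 and 4.66 FPKM. Neutrophil markers (6 IDs) summed to at most 7.18 and 5.26 FPKM, with lyz at 0 throughout and MMP9, CSF3R and cebp1 the only genes above 0. Those of mast cells, eosinophils and thrombocytes (8 IDs) summed to at most 3.31 and 2.24 FPKM, with GP1BB and THBS1 the only symbols above 0. Only 19 of 22 microglia and macrophage symbols and 23 of 25 lymphoid symbols matched an ID. So did 6 of 10 neutrophil symbols and 7 of 8 symbols of this last list. Among those without an ID were mpeg1.1 of macrophages, mpx of neutrophils and cpa5 of mast cells, which the low sums do not cover. No gene of these 4 lists was higher or lower at an unadjusted p under 0.05, and their median differences were -0.18, 0.35, 0.22 and 0.14 in the order given.

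Erythrocyte markers (14 IDs) summed to 0 to 335 FPKM in injury libraries against 14.6 to 309 FPKM in distal libraries, most of it from TMEM14C and blvrb, which are not confined to red cells. Of 18 symbols 13 matched an ID, and those of beta globin did not. The alpha globin gene hbaa1 was above 0 only in injury replicate 6 (20.1 FPKM), and the erythroid factor gata1a was at 0 in all 11. Other genes of the list were present at low levels. The hemgn gene was above 0 in 4 injury and 2 distal libraries, at most 13.9 FPKM. One ID of SLC4A1 was above 0 in 5 and 2, at most 13.3 FPKM, and cahz in 2 and 2, at most 11.8 FPKM. All 14 IDs were at 0 in injury replicate 3, the library with the highest hpxb. That library also covered the fewest genes, so a 0 there says little. Of the 7 tested, 0 were higher or lower at that threshold, with a median difference of 0.44.

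Among markers of other spinal cells, the myelin gene mbpa differed most. It was at 0 to 234 FPKM in injury libraries against 129 to 531 FPKM in distal libraries, a difference of -4.54 ± 1.04 (SE; limma unadjusted p = 0.000171, adjusted 0.838), in the direction opposite to that of the 3 genes. The 12 oligodendrocyte IDs, led by mbpa, cnp and mbpb, summed to 8.12 to 635 and 216 to 692 FPKM, and 1 of 11 tested (mbpa) was lower, with a median of -0.22. Fibroblast and pericyte IDs (20, led by DCN, RGS5 and TAGLN) summed to 0 to 83.5 and 23.4 to 64.6 FPKM, and of 14 tested TAGLN was higher (2.44, limma unadjusted p = 0.0156, adjusted 0.838) and 1 ID of TNC lower (-1.85, limma unadjusted p = 0.0436, adjusted 0.838), with a median of 0.23. Skeletal muscle IDs (12, led by tpma, actn3b and ACTA1) summed to 0 to 7.30 and 0.171 to 35.6 FPKM, and 1 of 5 tested, tpma, was lower (-2.38, limma unadjusted p = 0.0243, adjusted 0.838), with a median of 0.20. Ependymo-radial glia (19 IDs, 129 to 578 and 76.1 to 805 FPKM, mostly GLUL and FABP7) and endothelium (15 IDs, 0 to 29.7 and 1.61 to 10.9 FPKM, led by plvapb, SLC2A1 and CLDN5) had 0 of 16 and 0 of 6 tested genes past that threshold, with medians of 0.34 and 0.36. Neither the serotonergic list, led by tph2, FEV and DDC (12 IDs, 6809 to 10776 and 4621 to 12270.1 FPKM, median -0.24), nor the pan-neuronal list, led by SNAP25, SYT1 and UCHL1 (18 IDs, 2941 to 4599 and 2460 to 4067 FPKM, median 0.18), had a gene past it. The part of any of these cells in the levels of il13, ifi27.1 and hpxb was not tested.

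The genes beside the 3 in the reference annotation (assembly GRCz12tu, used for gene order only) did not overlap them. No value was matched for 1 of them, beside hpxb. The flanking genes of il13 were pou4f3, at 0 in all 11 libraries, and rad50, above 0 in 3 injury and 2 distal libraries, reaching 38.7 FPKM in injury replicate 3 and no more than 5.90 FPKM elsewhere. Beside ifi27.1 lay ifi27.3 and snapc1b, a subunit gene of the small nuclear RNA activating complex. The latter was above 0 in 5 injury libraries, at 7.17 to 13.02 FPKM, and in 1 distal library, at 12.6 FPKM, a difference of 2.13 ± 0.99 (SE; limma unadjusted p = 0.0415, adjusted 0.838). On the other side of hpxb lay hace1, a ubiquitin ligase gene, at 0 to 32.7 FPKM in injury libraries against 2.63 to 7.53 FPKM in distal libraries (difference 0.34 ± 0.95, SE). It was at 0 in injury replicate 3, where hpxb was highest and the fewest genes were covered.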

How the data were processed

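The deposited table gives FPKM per gene ID and library. Per the submitters' processing notes HISAT2 2.0.5, HTSeq 0.9.1 and the danRer11 build were used, and per the study's methods RNA from sorted cells was amplified with SMART-Seq v4 and sequenced paired-end. The authors tested differences with DESeq, which was not refitted. All columns of the table were used. Of 32520 Ensembl IDs, 29201 matched a symbol, spelled as the reference gives it; 7194 IDs lie outside Ensembl.

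FPKM values are whole fragments over a length and a total, so library totals and whole fragments were recovered from them and tested on simulated data. Genes whose mean FPKM was 0.1 or more were tested with limma 3.58.1 (R 4.3.3; eBayes with trend) on log2(FPKM + 1), which understates changes of low genes, with Benjamini-Hochberg adjustment. Exact permutation tests used Python 3.11.15, numpy 2.4.6, pandas 2.3.3 and scipy 1.17.1, and figures matplotlib 3.10.9. The p-values measure the spread between libraries, which the sources do not say came from separate fish.

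The members, gene lists (18, all given in the report) and tests were chosen with earlier results of these data known. Genes named are the 3, their paralogs, receptors and partners, list genes at an unadjusted limma p under 0.05, the 3 most abundant of a list, the 5 most alike to each by Pearson's r, and the 6 higher genes of smallest p. A few others (such as antiviral, receptor-chain, exporter and defining marker genes, many at or near 0, and flanking genes) were added after their values were seen. List symbols were matched exactly, in capitals, or in capitals without the paralog letter, and symbols that matched no ID were not analysed here. An oligodendrocyte marker was left out of its list and is not reported here. Alternatives were pseudocounts of 0.1 and 0.01, other filters and scalings, voom, a replicate block and leaving out each library.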

Additional observations from a re-analysis of the deposited data

Results flagged for a closer look

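On the log2(FPKM + 1) scale, none of the 3 genes had a library that stood far from its group by Dixon's criterion. The criterion was not applied to FPKM itself. There hpxb was at 3785 FPKM in injury replicate 3, against at most 1080.2 FPKM in the other injury libraries. In distal replicate 2 hpxb was at 937 FPKM, against at most 274 FPKM in the other distal libraries. Among the paralogs of the 3 genes, 6 of the 19 groups tested for il13, ifi27.1, hpxb and the paralogs had a library far from the others on the log2 scale. These were hpxa in injury replicate 5 (0.813 FPKM) and in distal replicate 5 (0.0810 FPKM) and ifi27.3 in distal replicate 2 (0.545 FPKM), each the only library of its group above 0. They were also il4 in injury replicate 1 (8.58 FPKM), ifi27.6 in injury replicate 2 (0 FPKM against 58.8 to 170 FPKM in the other injury libraries) and ifi27.8 in injury replicate 3 (0 FPKM against 72.0 to 306 FPKM). A group with a single library above 0 is flagged whatever its level, so the count is not set against chance.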

How the results depend on the processing

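The differences of il13, ifi27.1 and hpxb kept their direction under all 22 alternatives each. The genes were selected on this difference, so the shared direction is no test of them. Other filters and the fit without a trend leave the difference of a gene as it was, so they could not change it. The replicate block gave the same differences as leaving out injury replicate 6. The differences lay between 2.29 and 3.69 for il13, 2.22 and 2.90 for ifi27.1 and 2.30 and 3.42 for hpxb, extremes that came from leaving out 1 library. The count of genes at an adjusted p under 0.05 was 0 in the limma fit, 2 without the trend, 3 with voom on recovered fragments, and 0 when any 1 library was left out. At an unadjusted p under 0.05 the count of 649 became 1170 with voom and 541 to 739 without 1 library. Higher calls were 159 of 649, 519 of 1170 with voom, 315 of 779 after quantile normalization, 343 of 679 and 386 of 739 without injury replicate 2 or 3, and 616 of 942 without both and distal replicate 2. No relation among the injury libraries and no paralog passed its adjusted threshold under any alternative, where r of il13 and ifi27.1 was 0.77 to 0.96 (adjusted exact permutation p 0.233 to 0.600). Paralogs above 0 in at most 3 libraries could not pass at any level. The lower limma call of FECH held in all 22 alternatives. That of PSME1 was lost under the replicate block (a difference of -3.15) and without injury replicates 2 and 3 and distal replicate 2 (-0.70). The higher call of ifi27.2 was lost in 7 of 22.

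Whether replicate numbers pair the samples is not given in the sources, and correlations this weak cannot settle it. Same-numbered injury and distal libraries had correlated deviations of -0.05 to 0.13, with 1 of 5 above 0.1, and 4 of 10 correlated best with their own number. With the replicate block the differences were 3.34 for il13, 2.77 for ifi27.1 and 2.82 for hpxb, and 0 genes passed the adjusted threshold, with 696 at an unadjusted p under 0.05.

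Of the values of the 3 genes, only il13 in distal replicate 4 rested on few fragments. Amplified copies are not independent molecules, so a high fragment count does not show that many molecules were sampled. The highest ifi27.1 and hpxb levels at the injury came from injury replicates 2 and 3, which covered the fewest genes there. The highest distal level of all 3 genes came from distal replicate 2, which covered the fewest genes of the distal libraries. How few genes injury replicates 2 and 3 covered limits what a 0 there can say of other genes.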
